A study of Zea mays with 2 samples.

Results

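The regions described here are maize regions with a high count ratio, from a study that set a nucleosome library against its input. They were selected on the measured ratio itself, as regions of chromosomes 1 to 10 with a deposited ratio above 1.5. There were 346 such high-ratio regions among the 3120 on the numbered chromosomes, and 3126 regions were listed in all. They were set against the 2240 middle regions, whose ratio lay between 0.5 and 1.5.

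The series holds 1 MNase library and 1 input library, both made from B73 flowers; B73 is a maize inbred line. For the MNase library, nuclei were digested with micrococcal nuclease at 0.02 U/µl for 10 min and fragments near 150 bp were recovered from a gel. For the input, chromatin was sheared by sonication to 200 to 500 bp. Without replicate libraries MNase cannot be tested against input, and flowers hold many cell types besides those in meiosis.

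A nucleosome is a stretch of DNA wound around a core of histone proteins. Micrococcal nuclease cuts the linker DNA between nucleosomes and spares the DNA wound on them, so sequencing the spared fragments shows where nucleosomes lie. Meiotic recombination starts from DNA double-strand breaks, which cluster in hotspots; in budding yeast most of these lie where nucleosomes are depleted. The series title concerns such hotspots in maize, but the deposited table itself does not call its regions by that name.

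Each region in the authors' deposited table has 2 whole numbers and a ratio. The ratio equalled 0.176 times the first number divided by the second number plus 1, in 3126 of 3126 rows. The numbers are called first count and second count below, because the table has no header and does not say which belongs to MNase. A high ratio thus means a high first count for the second count, and it is not read here as more or fewer nucleosomes. It is not stated either that the numbers are reads. Positions are those of the table, whose genome build is not stated, so no gene or sequence is given for a region. On the numbered chromosomes the first counts summed to 162262 and the second counts to 28993.

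By their medians, the high-ratio regions as a whole differed from the middle regions mainly in a low second count. Both counts form the ratio that chose the regions, so these values are a description with no test. The second count of the high-ratio regions had a median of 4 (quartiles 2 and 8), against 9 (6 and 14) in the middle regions. The first count had a median of 59 (quartiles 36 and 93.8) in the high-ratio regions, against 52 (32 and 77) in the middle regions. Per kb of region, the median second count was 3.85 in the high-ratio regions, against 8.14 in the middle regions. The median first count per kb was 52.6 in the high-ratio regions, against 43.9 in the middle regions. The median second count per kb was thus under that of the middle regions, but the quartile ranges of both counts overlapped. For the second count per kb they were 1.91 to 6.60 in the high-ratio regions and 4.94 to 11.4 in the middle regions. For the first count per kb they were 30.8 to 76.8 in the high-ratio regions and 28.4 to 61.7 in the middle regions. The same order of second counts was seen on 10 of 10 chromosomes, and the median first count was higher in the high-ratio regions on 8 of 10. The choice by the ratio favours both orders on every chromosome, so these numbers add no separate support.

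**Figure D1:**
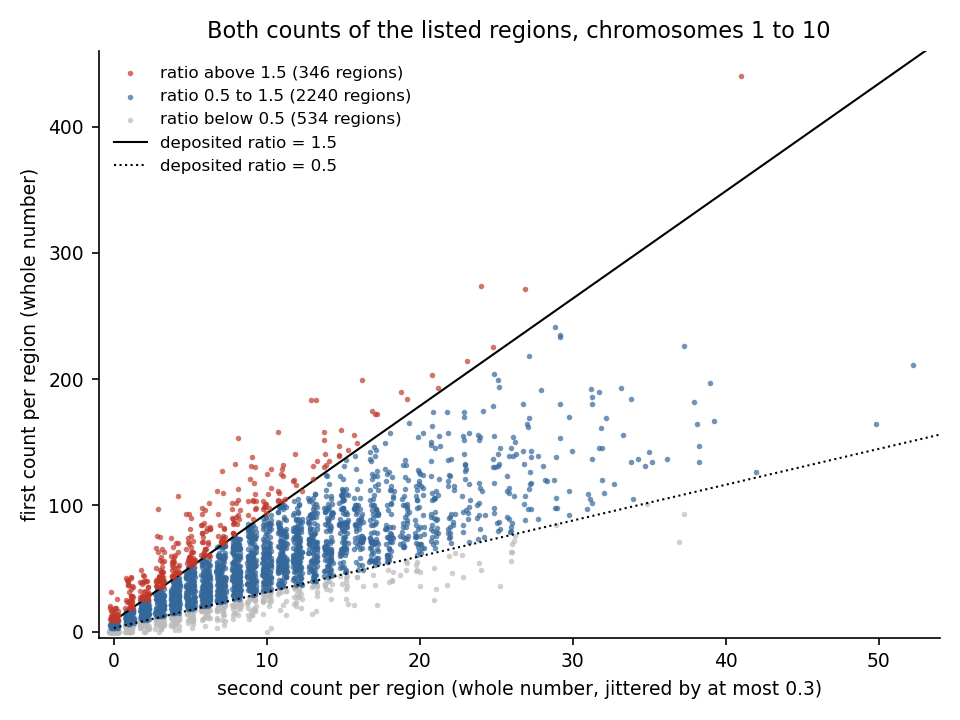
First count against second count (whole numbers) for each region on chromosomes 1 to 10; the solid line marks a ratio of 1.5 and the dotted line a ratio of 0.5. The 346 high-ratio regions (red) form a band above the solid line that is densest at second counts under 10 and thins out to single regions above 20.

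The high-ratio regions were sorted by the term that stood out, with limits taken from the middle regions after the values were seen. Low was set as a second count per kb under the lower quartile of the middle regions, and high as a first count per kb above their upper quartile. By these limits, 193 high-ratio regions (55.8%) had only a low second count, with a median second count of 2. Another 122 (35.3%) had only a high first count, with a median second count of 9. In 20 regions (5.78%) both held, with a median ratio of 2.34. That this was the highest follows from the way both terms form the ratio. The remaining 11 regions (3.18%) met neither limit. The sorting depends on the limits. With the medians of the middle regions as limits, 159 regions (46.0%) were both high in the first and low in the second count. Then 136 (39.3%) were only low in the second count, 51 (14.7%) only high in the first, and 0 neither. The 0 was fixed by the rule, since counts that meet neither of these limits cannot give a ratio above 1.5.

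A small second count was common among them. A second count under 5 was found in 175 of the 346 high-ratio regions (50.6%), against 401 of the 2240 middle regions and 861 of all 3120. A second count of 0 was found in 37 high-ratio regions and in 204 of all 3120. At a second count of 0, a first count of 9 suffices to pass the ratio of 1.5. At a second count of 5 it takes a first count of 52, at 10 it takes 94, and at 20 it takes 179. Membership thus asked for few counts where the second count was small, and for many where it was large. The 37 regions with a second count of 0 had first counts from 9 to 31, with a median of 12, and a median length of 935 bp.

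The share of regions with a high ratio differed with the second count. Over all second counts it was 11.1% (exact Clopper-Pearson 95% interval 10.0 to 12.2). Among the 861 regions with a second count under 5 it was 20.3% (17.7 to 23.2). Among the 1284 regions with a second count of 10 or more it was 4.60% (3.52 to 5.89), and among the 280 with 20 or more it was 2.5% (1.01 to 5.08). The second count is part of the ratio, so a fall of this share with the second count is in part arithmetic, and nothing is read from it. The median ratio of all regions was 0.811 at second counts under 5 and 0.818 at 10 or more, but the class under 5 is mixed. The median ratio was 0 at a second count of 0, 0.940 at 1 to 2, 0.926 at 3 to 4 and 0.728 at 20 or more. The quartiles were 0.353 and 1.41 under 5, and 0.637 and 1.05 at 10 or more.

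**Figure D2:**
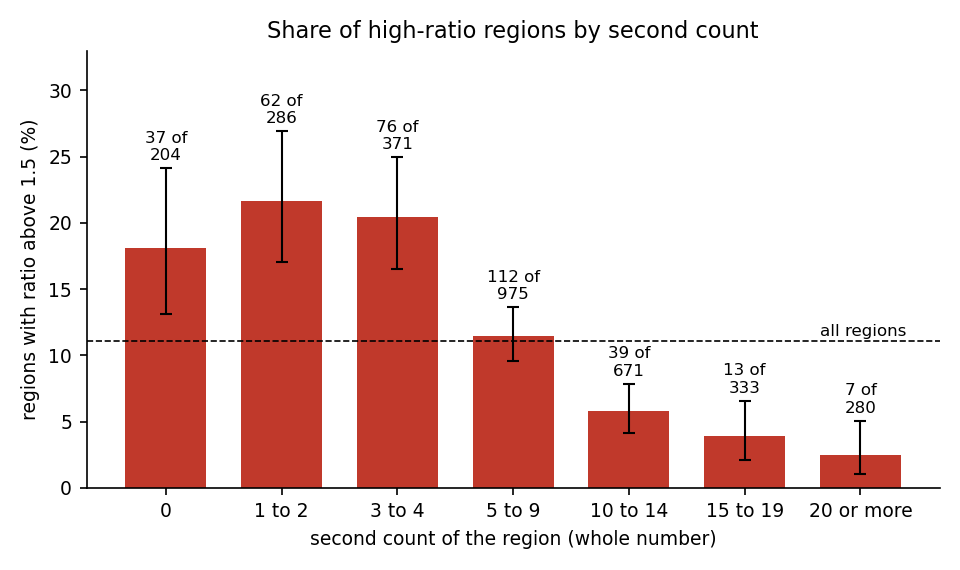
Share of regions with a ratio above 1.5 (%) by the second count of the region, with exact 95% intervals and the numbers of regions; the dashed line is the share over all regions, 11.1%. The share lies between 18.1% and 21.7% at second counts of 0 to 4 and is 2.5% at 20 or more.

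The 1 added to the second count also weighs most there. It lowers the ratio by 50.0% at a second count of 1, by 16.7% at 5 and by 9.09% at 10. The added 1 kept regions out rather than letting them in. Without it 658 regions would lie above 1.5, if a second count of 0 with any first count is taken as above it. With 1 added to the first count as well, 374 regions would.

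The highest ratios of all stood on the smallest second counts. Of the 21 regions with a ratio above 3, 21 had a second count under 5. The top ratio of the authors' deposited table, 5.47, came from a first count of 31 and a second count of 0, at chr5:27061233-27062084. Its second count of 0 sets no upper limit to the ratio, and the exact 95% counting interval starts at 1.395. The ratio ranked next in the authors' deposited table, 4.58 at chr4:67649628-67650565, came from counts of 26 and 0, and its interval starts at 1.16. The fourth in the authors' deposited table, 3.79 at chr1:156942174-156942974, came from counts of 43 and 1, with an interval from 1.29 to 306. These 3 regions were 938 bp long or shorter.

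The counting interval used here is exact and conditional on the sum of both counts (Clopper-Pearson), and it is given for 0.176 times the first over the second count without the added 1. It assumes that the numbers are independent read counts and covers counting error only. Regions chosen for a high ratio have ratios that lean high, and the intervals are not corrected for that choice. By this measure 4 regions, 0.128% of the 3120, had a lower limit above 1.5, and all of these were high-ratio regions. A lower limit above 0.838, the median ratio of all numbered-chromosome regions, was found in 238 of the 3120 (7.63%), of which 197 were high-ratio regions. The other 149 high-ratio regions had an interval that reached down to that median or below it. These limits leave out the added 1, while 1.5 and 0.838 are on the scale of the deposited ratio, which includes it. With 1 added to the second count in the limits as well, 3 high-ratio regions in place of 4 passed 1.5. By the same change, 146 in place of 197 passed 0.838.

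The 4 regions with a lower limit above 1.5 had first counts of 97 to 153 and second counts of 3 to 8. In the authors' deposited table, the region at chr4:101816668-101818268 (1601 bp) had counts of 97 and 3 and a ratio of 4.28, with an interval from 1.89 to 28.1. The region at chr6:107178105-107179876 (1772 bp) had counts of 107 and 4 and a ratio of 3.77 in the authors' deposited table, with an interval from 1.79 to 17.6. Both had first counts per kb, 60.6 and 60.4, within the quartiles of the middle regions, and second counts per kb, 1.87 and 2.26, under their lower quartile of 4.94. The other two of the 4 were high in the first count. The region at chr2:143428562-143429586 (1025 bp) had counts of 153 and 8 and a ratio of 3.0 in the authors' deposited table, with an interval from 1.67 to 7.95. The region at chr10:80482421-80483313 (893 bp) had counts of 127 and 7 and a ratio of 2.80 in the authors' deposited table, with an interval from 1.51 to 8.12. Their first counts per kb, 149 and 142, were far above the upper quartile of the middle regions, 61.7, while their second counts per kb, 7.80 and 7.84, were near the median of 8.14.

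The next 6 by lower limit ran from 1.395 to 1.47. In the authors' deposited table they include counts of 76 and 3 at chr6:99262267-99263441, 75 and 3 at chr9:120427815-120428689, and 133 and 8 at chr7:128229875-128231036. The regions at chr2:8731960-8733142 and chr3:11195290-11196549 had the same counts in the authors' deposited table, 183 and 13, with a ratio of 2.30 and an interval from 1.42 to 4.75. The region with a second count of 0 on chromosome 5 was the last of the 6. Of the 10 regions with the highest lower limits, those with second counts of 0 to 4 had first counts per kb from 36.4 to 85.7. Those with second counts of 7 to 13 had first counts per kb from 114 to 155. High lower limits were thus reached both with few second counts and with a very high first count per kb.

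Of the 346 high-ratio regions, 59 (17.1%) were well counted, with a second count of 10 or more, and 112 had a second count of 5 to 9. The well-counted regions lay on all 10 chromosomes, from 2 on chromosome 9 to 10 on chromosome 3. Their ratios were lower than those of the others, with a median of 1.63 and a highest value of 2.32, against a median of 1.94 and a highest value of 5.47 at second counts under 5. A ratio above 2 was found in 123 of the 3120 regions (3.94%). These include 6 of the 59 well-counted high-ratio regions and 83 of the 175 with a second count under 5. The second count is part of the ratio that chose the regions, so these contrasts are in part arithmetic, and nothing is read from them. A lower limit above 1 was found in 110 of the 3120 regions (3.53%), all of them high-ratio regions. Of these 110, 33 were well counted and another 33 had a second count under 5. The highest ratio among the well-counted regions in the authors' deposited table, 2.32, belonged to chr3:47159685-47160697, with counts of 158 and 11 and an interval from 1.38 to 5.18; this region was picked after its values were seen.

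The counts per kb of the well-counted regions are bound by how they were chosen, since a second count of 10 with a ratio above 1.5 needs a first count of at least 94. They are given as a description, with nothing read from them. Their median first count per kb was 99 (quartiles 79.4 and 119), against 58.6 (46.0 and 76.6) in the middle regions that were also well counted. Their median second count per kb was 9.94 (quartiles 7.57 and 11.4), against 11.5 (9.38 and 14.3) in those middle regions. Of the well-counted high-ratio regions, 57 (96.6%) had a first count per kb above the upper quartile of all middle regions. A second count per kb under the lower quartile of all middle regions was found in 0 of them. In the high-ratio regions with a second count under 5, the median first count per kb was 31.4, against 17.4 in the middle regions with a second count under 5 and 43.9 in all middle regions.

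**Figure D3:**
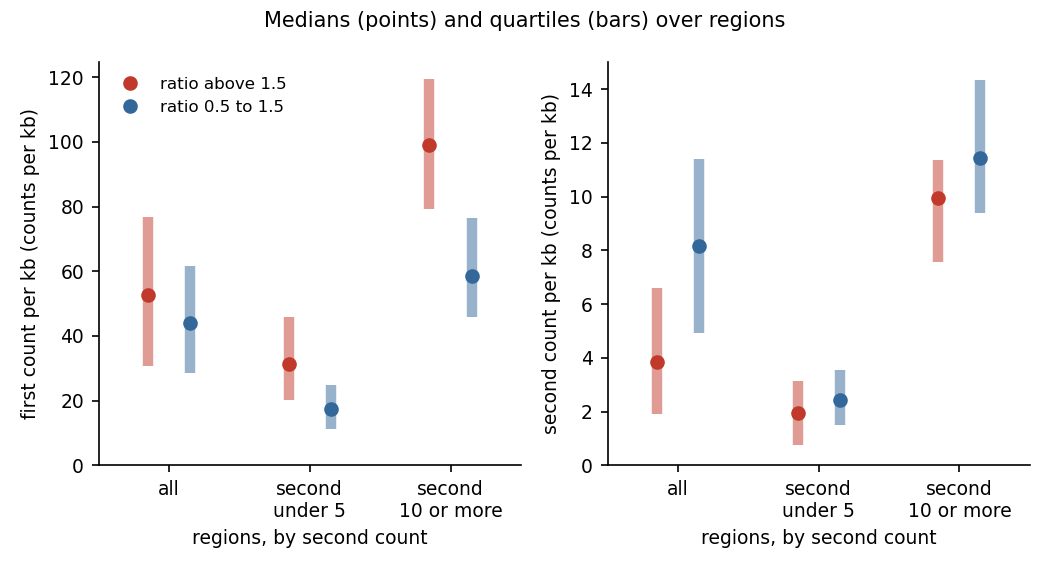
First count per kb (left) and second count per kb (right) in the high-ratio regions (red) and the middle regions (blue), for all regions, for second counts under 5 and for second counts of 10 or more; points are medians and bars run between the quartiles over regions. At second counts of 10 or more, the median first count per kb is 99 in the high-ratio regions and 58.6 in the middle regions.

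A second count of 20 or more was found in 7 high-ratio regions, which are the most precisely counted. They are named for that count, which was looked at after the values were seen. The region with most counts, chr10:74032339-74034956, was also the longest high-ratio region at 2618 bp. In the authors' deposited table it had counts of 440 and 41 and a ratio of 1.85, and its interval ran from 1.37 to 2.67. The highest ratio of the 7 in the authors' deposited table was 1.93 at chr3:202110966-202112390, with counts of 274 and 24 and an interval from 1.32 to 3.20. This region also had the highest first count per kb of all high-ratio regions, 192, and a second count per kb of 16.8, more than the 8.14 of a typical middle region. The region at chr1:8551647-8554048 followed in the authors' deposited table with counts of 271 and 27, a ratio of 1.71 and an interval from 1.19 to 2.74. The remaining 4 had ratios from 1.53 to 1.63 and lower limits from 1.03 to 1.09. They lay on chromosomes 2, 3 and 8. None of these 4 lower limits was above 1.5. That they were all above 0.838, the median ratio of all regions, follows from the choice of the regions. Counts this large with a ratio above 1.5 cannot give a lower limit under that median. The lowest limit of all 59 high-ratio regions with a second count of 10 or more was 0.863.

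**Figure D4:**
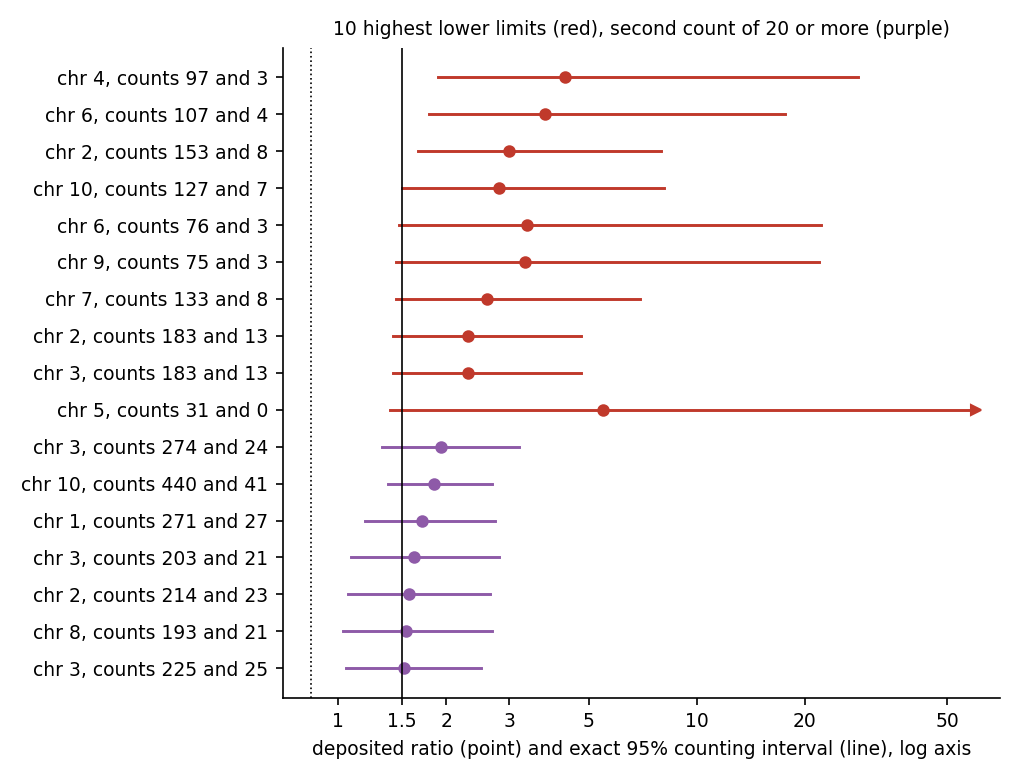
Deposited ratio (points) and exact 95% counting interval (lines, log axis) of the 10 high-ratio regions with the highest lower limits (red) and the others with a second count of 20 or more (purple), labelled by chromosome and by first and second count. The solid line marks 1.5 and the dotted line the median ratio of all regions, 0.838; an arrow marks an interval without upper limit. Intervals of the red regions with second counts under 5 are the widest, and those of the purple regions the narrowest.

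Just above the threshold in the authors' deposited table were ratios of 1.506 with counts of 111 and 12, 1.507 with 94 and 10, and 1.509 with 77 and 8. Just below it in the authors' deposited table were 3 regions with a ratio of 1.499, of which 2 had counts of 68 and 7 and the other had 17 and 1. The counting intervals of these 6 regions all held both 1.0 and 1.5, so the side of the threshold on which they fell is not firm.

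Length, position and spacing were not used to choose the regions and were compared over the 10 chromosomes. Regions that share a chromosome are not replicates, so chromosomes were the units. The difference of medians was taken on each chromosome, and its mean was tested two-sided by an exact permutation test that flips the signs of these differences. That test can give no p under 0.00195, and p-values were adjusted over the 3 tests (Benjamini-Hochberg). It measures how much chromosomes vary within these 2 libraries, and nothing about plants. None of the 3 differences passed the threshold of 0.05, which does not show that the groups are alike.

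The high-ratio regions had a slightly lower median length, within the spread between chromosomes. The median length was 1075.5 bp (quartiles 898 and 1449) in the high-ratio regions, against 1137 bp (924 and 1497) in the middle regions. The high-ratio regions had the lower median on 6 of 10 chromosomes. The mean log2 difference was -0.048 ± 0.15 (SD, n = 10 chromosomes; exact permutation test, p = 0.340, adjusted p = 0.510). Chromosome 8 had the most negative difference, with medians of 962 bp in the high-ratio regions and 1144 bp in the middle regions. Chromosome 5 had the most positive one, with 1262 bp in the high-ratio regions and 1128.5 bp in the middle regions. The share of high-ratio regions was 12.3% (exact interval 10.0 to 14.9) at 800 to 900 bp and 8.40% (4.10 to 14.9) above 2000 bp, and these intervals overlapped.

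Length and second count moved together, and the lower median length of the high-ratio regions did not hold within most classes of second count. The median second count of all regions was 6 at 800 to 900 bp and 18 above 2000 bp. At second counts under 5 the median length was 1017 bp in the high-ratio regions and 962 bp in the middle regions. At 5 to 9 it was 1075.5 bp in the high-ratio regions and 1053.5 bp in the middle regions. Only in the class with a second count of 0 was the order the other way, 935 bp against 960 bp. Among regions with a second count of 10 or more, the high-ratio regions had the higher median length, 1456 bp against 1315 bp in the middle regions. The mean log2 difference over chromosomes was then 0.15 (exact permutation test, p = 0.0703, unadjusted), with medians of only 2 to 10 high-ratio regions per chromosome. Against all other regions in place of the middle ones, the mean log2 difference was 0.00029. Which of length and count the ratio goes with was not tested.

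High-ratio regions were spread over all chromosomes. Their number ran from 21 on chromosome 6 to 50 on chromosome 4. Their share averaged 11.1% ± 1.63 (SD, n = 10 chromosomes) and ran from 8.37% (exact interval 5.90 to 11.5) on chromosome 1 to 13.2% (9.26 to 18.0) on chromosome 7. The interval of each of the 10 chromosomes held the share over all regions. The median ratio of the high-ratio regions ran from 1.73 on chromosome 4 to 2.04 on chromosome 10.

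Along the chromosome, the high-ratio regions were somewhat fewer near the ends, but not beyond the spread between chromosomes. Distance was taken from the middle of a region to the nearer end, as a percentage of the span up to the last listed region, since the chromosome length is not in the table. The median distance was 27.7% (quartiles 16.2 and 38.8) in the high-ratio regions, against 25.4% (12.6 and 37.7) in the middle regions. The mean difference was 3.16 ± 5.92 percentage points (SD, n = 10 chromosomes), and the high-ratio regions lay farther inside on 7 of 10 chromosomes (exact permutation test, p = 0.131, adjusted p = 0.393). The widest difference was on chromosome 6, with medians of 36.5% in 21 high-ratio regions and 22.9% in the middle regions. Chromosome 7 went the other way, with 18.4% in the high-ratio regions and 24.2% in the middle regions.

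Where the distance to the end was under 10% of the span, 8.26% of regions (exact interval 6.20 to 10.8) had a high ratio, and at 40 to 50% it was 12.9% (10.4 to 15.9). Within 20 Mb of an end, 52 of 590 regions (8.81%, exact interval 6.65 to 11.4) had a high ratio, against 294 of the 2530 farther inside (11.6%, 10.4 to 12.9). Among regions with a second count of 10 or more the order by the 20 Mb limit was the other way, with 5.54% within 20 Mb of an end and 4.34% farther inside. By distance to the end, the share among these regions went in no single direction. It was 4.96% under 10% of the span, 6.45% at 10 to 20%, 4.08% at 20 to 30%, 1.97% at 30 to 40% and 5.49% at 40 to 50%. The median distance of the well-counted high-ratio regions was 18.6%, against 24.8% in the well-counted middle regions, a mean difference over chromosomes of -3.20 percentage points (exact permutation test, p = 0.316, unadjusted). By the median distance, the well-counted regions with a high ratio thus lay nearer the ends, within the spread between chromosomes. That spread rests on medians of only 2 to 10 such regions per chromosome.

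**Figure D5:**
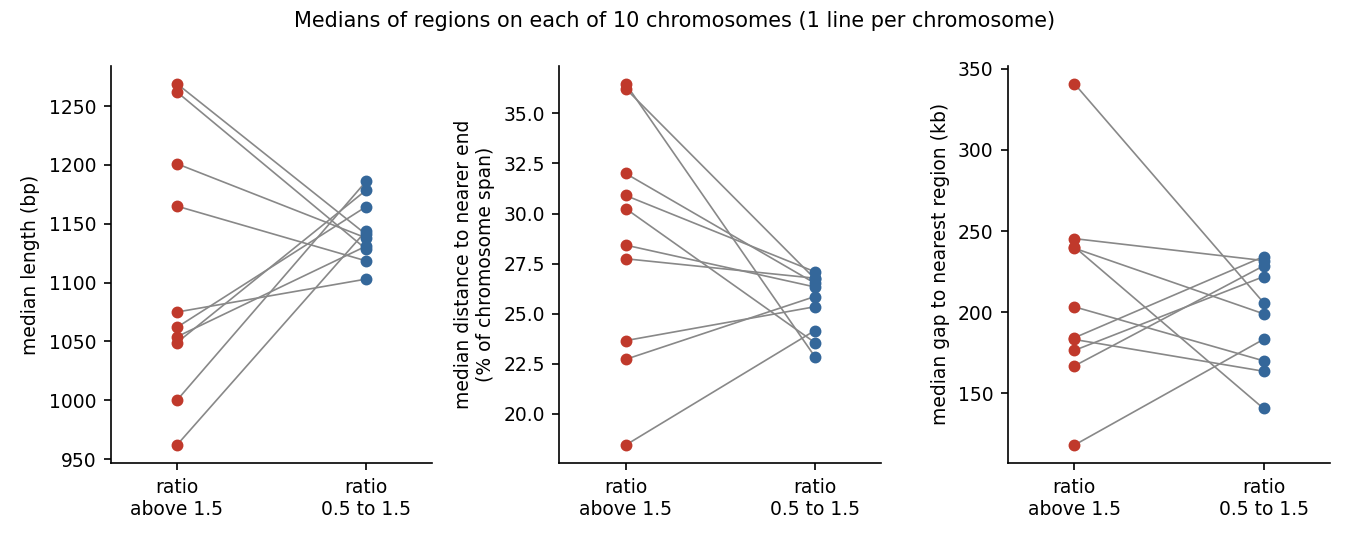
Median length (bp), median distance to the nearer chromosome end (% of the span) and median gap to the nearest listed region (kb) of the high-ratio regions (left in each panel) and the middle regions (right), with 1 line per chromosome. The lines run in both directions in every panel: the high-ratio regions have the lower length on 6 chromosomes, the greater distance on 7 and the wider gap on 6.

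No difference in spacing was detected over all high-ratio regions. The median gap to the nearest listed region was 194 kb in the high-ratio regions, against 204 kb in the middle regions, and the mean log2 difference was 0.050 ± 0.48 (SD, n = 10 chromosomes; exact permutation test, p = 0.742, adjusted p = 0.742). The sign of this difference turned when chromosome 6 or chromosome 7 was left out, to -0.025 and -0.030. With second counts of 10 or more only, the gap was 117 kb in the high-ratio regions and 193 kb in the middle regions, with a mean log2 difference of -0.72. There p was 0.0410 in the exact permutation test, unadjusted, while over this result's alternatives p ran from 0.0410 to 0.902. The medians behind it rest on few high-ratio regions, from 2 on chromosome 9 to 10 on chromosome 3. A listed neighbour closer than 20 kb was found for 118 regions with a second count of 10 or more. Of these 118, 11 had a high ratio (9.32%), against 4.60% of all regions with such a second count, which include the 118. The 11 regions and their gaps also enter the gap difference above, so this share adds no separate support.

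A listed region closer than 20 kb was found for 31 of the 346 high-ratio regions (8.96%), against 8.62% of the middle regions. Of these 31 nearest neighbours, 27 had a ratio between 0.5 and 1.5, 2 had a lower one and 2 a high one, and their median ratio was 0.838. The high share of these neighbours was 6.45% (exact interval 0.791 to 21.4), an interval that holds the 11.1% of all regions, and 71.8% of all regions were middle ones. The 2 high ones were each other's neighbours, at chr8:157277938-157279307 with counts of 71 and 6 and at chr8:157295629-157296654 with counts of 158 and 14. They had ratios of 1.79 and 1.86 in the authors' deposited table. The closest neighbour of any high-ratio region lay 295 bp away on chromosome 10. The high-ratio region there, from 138067201 to 138068068, had counts of 84 and 6 and a ratio of 2.12 in the authors' deposited table, and 96.8 first counts per kb. Its neighbour, from 138064179 to 138066905, had counts of 92 and 13 and a ratio of 1.16 in the authors' deposited table, and 33.7 first counts per kb. The first counts of these adjoining regions, 84 and 92, were thus close. Their first counts per kb differed because the high-ratio region was 868 bp long and its neighbour 2727 bp. The second count per kb, at 6.91 and 4.77, rests on counts of 6 and 13, so its change is only loosely known. The counting intervals of the ratios overlapped, from 1.09 to 6.92 in the high-ratio region and from 0.695 to 2.43 in its neighbour.

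Regions that follow each other in the list were both high in 45 pairs, which took in 84 of the 346 regions. The next region was thus high after 13.0% of the high-ratio regions (exact interval 9.65 to 17.0), and this interval also holds the 11.1% of all regions. The longest run was 3 regions, found 6 times. A pair of well-counted regions on chromosome 3, from 24683735 to 24685760 and from 24718959 to 24720874, lay 33198 bp apart. Their counts in the authors' deposited table were 203 and 21 at the lower position and 225 and 25 at the higher one, with ratios of 1.63 and 1.53. Among the 10 regions with the highest lower limits, 2 had a nearest neighbour with a high ratio, 404962 and 1332475 bp away. The region at chr7:128229875-128231036, with counts of 133 and 8, had its nearest neighbour 9008 bp away with counts of 0 and 0 in the authors' deposited table.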

How the data were processed

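The members, groups and thresholds were chosen with earlier results of these data known. MNase and input were sequenced from 1 library each, and per the submitters' processing notes CASAVA 1.8 and BWA were among the tools. No source used here gives the genome build, the peak caller or the read filters, so no gene or sequence was assigned. The authors deposited 1 table without header, with length in bp, 2 whole numbers and a linear ratio for each region. The whole numbers were treated as counts, given to no library, and used as the terms of the ratio, whose formula was checked within 1e-05. Starts in the table count from 0, and 1 was added to print them. Small, well counted and best counted were set as second counts under 5, of at least 10 and of at least 20. Named regions were the 10 with the highest lower limits, the 5 highest ratios, those with most and fewest second counts and 3 on each side of the threshold. Functions were tested on simulated data. The 6 regions of chromosome 0 were left out, since the rule takes numbered chromosomes. Python 3.11.15, numpy 2.4.6, pandas 2.3.3, scipy 1.17.1 and matplotlib 3.10.9 were used.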

Additional observations from a re-analysis of the deposited data

How the results depend on the processing

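The number of high-ratio regions followed the rule and the added 1. The share of regions above the limit was 11.1%. It was 20.5% at the lower limit tried and 3.94% at a limit of 2, and 21.1% without the added 1. Among regions with a second count of at least 5, 10 and 20 it was 7.57%, 4.60% and 2.5%. With 99% in place of 95% intervals, 0 regions in place of 4 had a lower limit above 1.5, and 100 in place of 197 had one above the median ratio. With 1 added to the second count in the 95% limits, 3 in place of 4 and 146 in place of 197 did. The median first count moved to 51 at a limit of 2, and the median second count to 3 at 2 and to 6 at the lower limit. The length difference (-0.048, log2) turned to 0.15 with second counts of at least 10 and to 0.00029 against all other regions. The distance difference (3.16 percentage points) turned to -3.20 with second counts of at least 10. The gap difference (0.050, log2) turned to -0.72 with second counts of at least 10 and to -0.021 against all other regions. The cause of these turns was not tested. Leaving out each chromosome in turn gave length differences from -0.072 to -0.026, distance differences from 2.00 to 4.14 and gap differences from -0.030 to 0.13, with 0 of 30 past the threshold by the exact permutation test. With 1 library of each kind, counting error is the only error that could be given for a region.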
